A study of Bubalus bubalis with 12 samples.

Results

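The genes described here are those of the ubiquitin-proteasome system that the array names by 3 families of symbols: proteasome subunits, activators and assembly chaperones (PSMA to PSMG), ubiquitin-conjugating enzymes (UBE2) and ubiquitin-specific proteases (USP). Within these families every symbol with at least 2 probes was taken, and no gene was added or left out for its values; the families themselves were picked with earlier results of these data known. Of 84 matching symbols 69 qualified, out of 6805 genes with at least 2 probes on the array, and the 15 others carried 1 probe each. The 69 hold 28 proteasome genes (4 PSMA, 8 PSMB, 5 PSMC, 7 PSMD, 1 PSME and 3 PSMG), 22 UBE2 and 18 USP genes, and PSMC3IP, a meiotic recombination factor that matches the symbol rule without being a proteasome subunit. USP6NL, likewise, is a GTPase-activating protein that bears a USP symbol. The study measured 2 histone marks in sperm of 6 bulls of the water buffalo, Bubalus bubalis, taken from cryopreserved semen, with 1 ChIP-on-chip array per bull and mark. The 3 bulls HF2, HF3 and HF5 were labelled high-fertile and the 3 bulls SF1, SF4 and SF5 subfertile, and no treatment, breed or age is stated in the labels. Chromatin was cross-linked and cut with micrococcal nuclease, and DNA bound to H3K4me2 or to H3K27me3 was compared on each array with the same bull's input DNA. The samples are ejaculated cells as frozen, and purification from other cells of semen is not described in the sources used here. Each value is a log2 ratio of ChIP over input for a gene, averaged over its probes after subtracting the array's median probe, so 0 is the middle of the array and values give no absolute occupancy.

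The proteasome is a barrel of stacked alpha and beta rings in which some of the beta subunits cut proteins, capped by a particle whose ATPases unfold substrates and whose receptors recognise ubiquitin. Ubiquitin reaches its targets from a conjugating enzyme (E2) with the help of a ligase, and ubiquitin-specific proteases take it off again. In the male germ line the system removes histones and other proteins during spermatid remodelling, and sperm carry proteasomes that act at the egg coat. H3K4me2 marks promoters of active or poised genes, and H3K27me3 is placed by Polycomb complexes at silenced genes; mature sperm keep a small part of their histones, often at CpG-rich promoters.

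The 69 genes were covered by 1065 probes of 60 bases, which the array's annotation puts in CpG islands (906), promoters (142) or coding sequence (17); the array was designed on the cattle genome (HGSC Btau_3.1). Coverage ran from 2 probes (for example PSMA3, PSMA5, PSMB11 and UBE2Q2) to 111 (UBE2L3), with a median of 10, and 19 genes had only 2 or 3. Probes often overlap by most of their length, so a gene's probes are not independent readings: the 3 probes of PSMB10 share a stretch of 66 bases, and the 15 of USP47 form a single overlapping cluster. By symbol, 63 of the 69 matched the buffalo RefSeq gene table. Median processed signal per array was 645 to 815 in the input colour and 622 to 742 in the ChIP colour, 97.1% to 99.9% of probes were above background in input. Of the 12780 spots of the 69 genes, 228 (1.78%) in the ChIP colour and 151 in the input colour were not well above background; the ChIP spots lay in 29 genes and mostly on the H3K4me2 arrays of HF5 (85) and SF5 (58) and the H3K27me3 array of HF5 (47), and the input spots mostly on the arrays of HF3 (45 and 72). No probe of these genes was below background on all arrays of a group, but a low value that rests on dim ChIP spots, or a high one on dim input spots, is poorly bounded. Slide 4 held HF5 and SF1 with both marks, and each other slide held 1 bull, so that slide and bull cannot be told apart for the other 4. The labels name a different bull for each replicate. For fertility and levels within a mark, p-values below rest on the spread between bulls within a fertility group, moderated by limma over all genes. The SDs printed with levels are over all 6 bulls and include the difference between the groups, so the level p-values do not follow from them. Fits of both marks together took the 12 arrays of the 6 bulls as separate, except where bull is named as a block. The sperm, leukocyte and epithelial marker lists had 9 of 24, 4 of 11 and 6 of 10 genes on the array with enough probes. In H3K4me2 the list medians per bull ran from -0.35 to 1.11 for sperm, from -0.46 to 0.56 for leukocyte and from -0.12 to 0.54 for epithelial markers, with overlapping high-fertile and subfertile ranges. Among the sperm markers 7 of 9 had a lower high-fertile mean in each mark. Over all genes that mean was the higher for 48.2% in H3K4me2 and 50.7% in H3K27me3. Of the 9, 2 (ROPN1L and TEKT3) had an unadjusted p under 0.05 in H3K4me2 by limma, against 2.91% of all genes, with none past an adjusted p under 0.05. In H3K27me3 the list medians ran from -0.32 to 0.21, from -0.56 to 0.56 and from -0.47 to 0.53, again with overlap. Histone marks on these genes do not measure how many cells of each kind were present, and the part of other cells in the results was not tested.

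Probe sequences are shown for 4 genes on which the comparisons below turn, because so few or such close-lying probes decide their values. They are printed 5′ to 3′ as in the array files, whose strand is not stated, with each CG dinucleotide in capitals and with cattle positions on HGSC Btau_3.1.
PSMB10, CpG island, chr18:34441709-34441768: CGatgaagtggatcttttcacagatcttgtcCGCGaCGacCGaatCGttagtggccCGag
PSMG3, promoter, outlying probe, chr25:43294754-43294813: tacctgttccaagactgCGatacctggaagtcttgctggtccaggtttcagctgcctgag
PSMG3, promoter, middle probe, chr25:43302071-43302130: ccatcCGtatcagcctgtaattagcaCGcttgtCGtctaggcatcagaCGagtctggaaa
PSMG3, promoter, last probe, chr25:43302191-43302250: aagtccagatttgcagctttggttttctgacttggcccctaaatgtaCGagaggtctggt
PSMC6, CpG island, first of 9 overlapping, chr10:11266044-11266103: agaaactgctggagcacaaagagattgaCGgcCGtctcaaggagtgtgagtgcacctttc
PSMC6, CpG island, ninth of 9 overlapping, chr10:11266086-11266145: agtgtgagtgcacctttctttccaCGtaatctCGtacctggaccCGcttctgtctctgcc
UBE2Q2, promoter, first probe, chr21:31264650-31264709: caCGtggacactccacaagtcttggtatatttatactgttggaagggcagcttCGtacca
UBE2Q2, promoter, second probe, chr21:31265655-31265714: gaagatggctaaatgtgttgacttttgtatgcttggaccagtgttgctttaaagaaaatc
The PSMB10 probe holds 7 CG dinucleotides, against a median of 3 over all probes of the array, and the other PSMB10 probes start 4 and 6 bases further on. The outlying PSMG3 probe lies far upstream of the others in coordinate and holds 1 CG dinucleotide, and the second UBE2Q2 probe holds none.

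No difference between high-fertile and subfertile bulls at the 69 genes passed, by limma, a Benjamini-Hochberg adjusted p under 0.05, in either mark. The same held for all 6805 genes, of which 0.0% passed in H3K4me2 and 0.0% in H3K27me3. At an unadjusted p under 0.05, 0 of the 69 passed in H3K4me2 against 2.91% of all genes, and 2 in H3K27me3, PSMG3 and PSMB10, against 4.07% of all genes. Groups of 3 bulls did not overlap in H3K4me2 for 3 of the 69 genes (6.58% of all genes): PSMC6 and PSMC3IP were above in the high-fertile bulls (3.48% of all genes were above without overlap), and USP42 was below (3.1%). In H3K27me3 they did not overlap for 4 genes (8.57% of all genes): PSMG3 and PSMD12 were above in the high-fertile bulls (4.56% of all genes) and PSMB10 and PSMA5 below (4.01%). These shares lie under the background, and no gene of the 69 was free of overlap in the same direction in both marks (1.2% of all genes).

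The median difference, high-fertile minus subfertile, was -0.13 over the 69 genes in H3K4me2 beside -0.02 over all genes, and -0.0093 beside 0.0073 in H3K27me3. The high-fertile mean was the higher for 28 of 69 genes in H3K4me2 (48.2% of all genes) and for 34 in H3K27me3 (50.7%). The H3K4me2 median turned to 0.03 without HF5 and to 0.03 without SF5; the H3K27me3 median, close to 0, turned above 0 when any bull but SF5 was left out, to 0.04 without HF2, 0.05 without HF3, 0.07 without HF5, 0.10 without SF1 and 0.04 without SF4. For the median gene of the 69 the 95% confidence interval reached 1.22 log2 units to either side in H3K4me2 and 1.20 in H3K27me3. The difference of the fertility difference between the marks passed an unadjusted p under 0.05 for 0 of the 69 genes (0.661% of all genes), with a lowest p of 0.170. Bull as a block left it at 0 as well (3.61% of all genes).

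**Figure D1:**
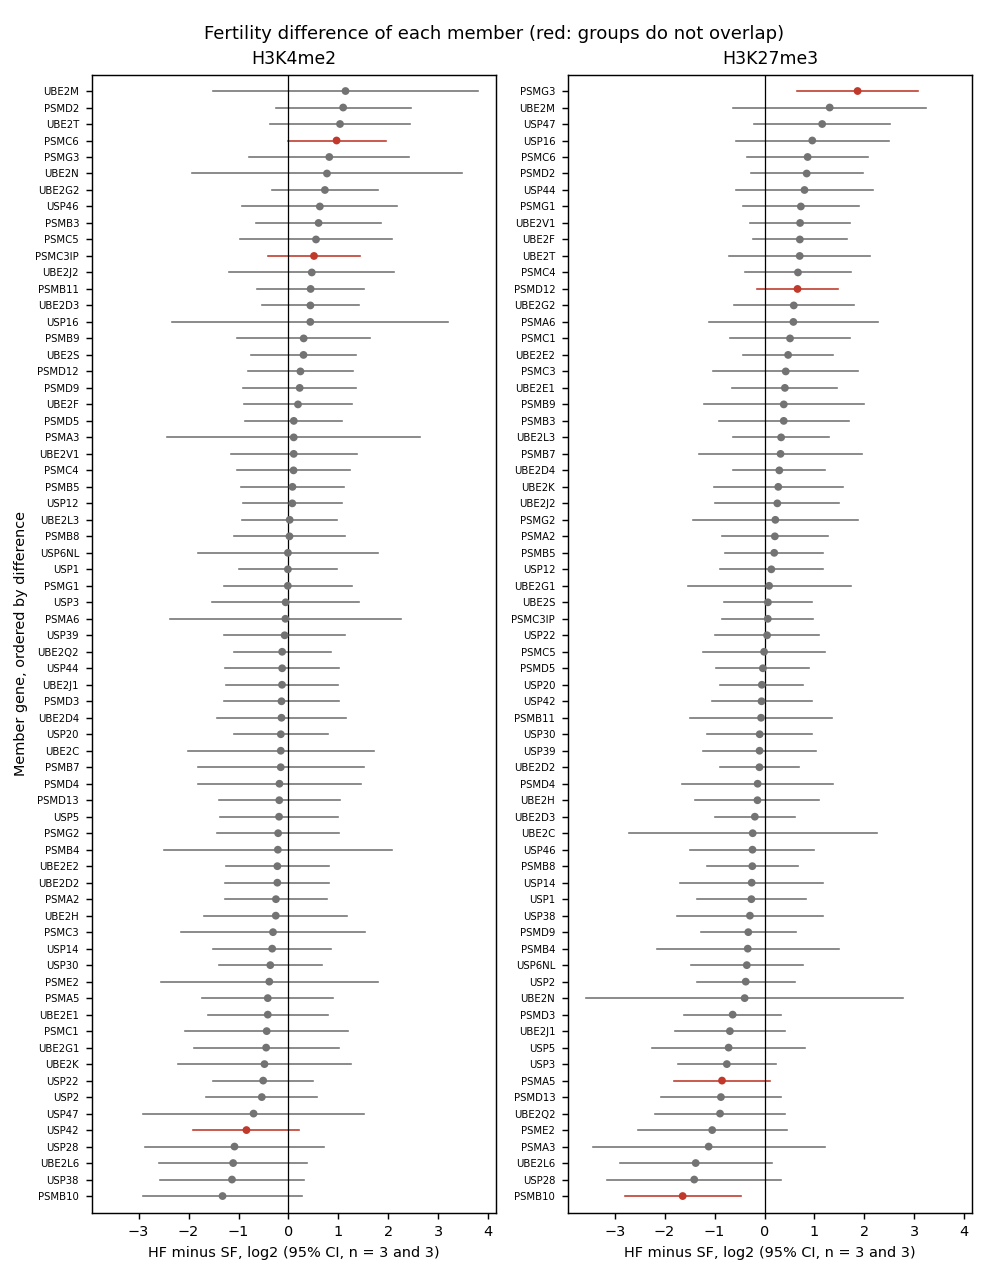
Difference between high-fertile and subfertile bulls for 68 of the 69 genes, in log2 units with its 95% confidence interval (limma, 3 and 3 bulls), for H3K4me2 on the left and H3K27me3 on the right. Red marks the 3 and 4 genes whose groups did not overlap; PSMG3 at 1.86 and PSMB10 at -1.64 in H3K27me3 are the ones whose interval leaves out 0.

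Within the alpha ring, whose subunits gate entry to the barrel, PSMA5 was the gene whose groups separated in H3K27me3. Its H3K27me3 values, given here and below in the order HF2, HF3, HF5 and SF1, SF4, SF5, were -0.79, -0.73 and -0.03 in the high-fertile and 0.06, 0.87 and 0.07 in the subfertile bulls, and its H3K4me2 values were -0.58, 0.53 and -0.89 in the high-fertile and 0.26, 0.81 and -0.77 in the subfertile bulls. All 3 high-fertile bulls lay below all 3 subfertile bulls in H3K27me3, HF5 narrowly below SF1, while the groups overlapped in H3K4me2. The H3K27me3 difference was -0.85 (SE 0.42, 95% confidence interval -1.82 to 0.12, unadjusted p = 0.0771). It rested on 2 promoter probes that disagreed: in SF5 they read -1.64 and 1.78, and their group differences were 0.13 and -1.84. With the 6 bulls' mean input as denominator the difference was -0.12, within slide 4 (HF5 minus SF1) it was -0.09, and its input signal relative to the array median was -1.41 in the high-fertile and -2.09 in the subfertile bulls. PSMA2, an alpha subunit covered by 20 probes, was the member with the smallest p for an H3K27me3 level away from 0. Its H3K27me3 values were 0.66, 0.97 and 1.16 in the high-fertile and 0.78, -0.05 and 1.45 in the subfertile bulls, above 0 in 5 of 6 bulls, with a mean of 0.83 ± 0.51 (SD, n = 6; unadjusted p = 0.00708). In H3K4me2 its values were 0.11, 0.31 and -0.15 in the high-fertile and 0.45, 0.83 and -0.25 in the subfertile bulls. PSMA3 spread widely with 2 probes, from -2.60 to 2.03 in H3K4me2 and from -2.50 to 1.65 in H3K27me3, and PSMA6 from -1.002 to 2.60 and from -1.33 to 1.59. Both PSMA3 probes were below background in ChIP on the H3K4me2 array of HF5, its lowest value, and 1 of 2 on that of SF5, and 1 of 2 in input on both arrays of HF3, its highest bull. Of the 2 PSMA5 probes, 1 was below background in ChIP on the H3K4me2 arrays of HF5 and SF5, and none in H3K27me3.

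The catalytic beta subunits were PSMB5 (chymotrypsin-like) and PSMB7 (trypsin-like) among the constitutive ones, and PSMB8, PSMB9 and PSMB10, their interferon-inducible counterparts in the immunoproteasome; PSMB6 was not analysed here. PSMB10, which takes the place of PSMB7, had the lowest H3K27me3 in high-fertile relative to subfertile bulls of all 69 genes. Its H3K27me3 values were -1.16, -0.43 and -2.24 in the high-fertile and 0.49, 0.46 and 0.14 in the subfertile bulls. All 3 high-fertile bulls were below 0 and all 3 subfertile bulls above 0, with group means of -1.28 ± 0.91 and 0.36 ± 0.19 (SD, n = 3). The difference was -1.64 (SE 0.51, 95% confidence interval -2.80 to -0.48, unadjusted p = 0.0114), place 63 of 6805 genes by p, and an adjusted p of 1.00. In H3K4me2 the values were 0.28, 1.87 and -0.60 in the high-fertile and 0.96, 2.46 and 2.08 in the subfertile bulls, with a difference of the same sign, -1.32 (SE 0.70, 95% confidence interval -2.90 to 0.26, unadjusted p = 0.0917), and overlapping groups. The 3 probes (chr18:34441709-34441774) gave nearly one reading, with H3K27me3 differences of -1.69 to -1.60. Within slide 4 (HF5 minus SF1) the H3K27me3 difference was -2.73, and against the mean input of the 6 bulls it was -1.14; the input signal was -0.32 in the high-fertile and -0.77 in the subfertile bulls, lower where the ratio was higher.

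The 2 other immunoproteasome genes, PSMB8 and PSMB9, lie on cattle chromosome 23 within the same stretch, and their groups overlapped in both marks. PSMB8 read 0.98, -0.32 and 0.49 in the high-fertile and 0.60, 0.57 and -0.08 in the subfertile bulls in H3K4me2. For H3K27me3 the values were -0.10, -0.45 and 0.52 in the high-fertile and 0.44, 0.06 and 0.21 in the subfertile bulls. The differences between groups were small beside the spread: 0.02 and -0.25. PSMB9 read -0.70, 1.24 and -0.51 in the high-fertile and -0.55, -0.46 and 0.12 in the subfertile bulls in H3K4me2, with HF3 alone well above 0. Its H3K27me3 values were -1.22, 0.15 and 1.60 in the high-fertile and -0.26, 0.36 and -0.72 in the subfertile bulls, where HF5 was the high bull. Among the constitutive subunits, PSMB5 stayed close to the array median in both marks apart from HF5. It read -0.02, -0.24 and 0.75 in the high-fertile and -0.20, 0.13 and 0.33 in the subfertile bulls in H3K4me2 and -0.16, -0.29 and 0.87 in the high-fertile and -0.15, 0.13 and -0.14 in the subfertile bulls in H3K27me3, with HF5 highest in each. PSMB7 read -0.19, -1.23 and 1.39 in the high-fertile and -0.75, 0.22 and 0.96 in the subfertile bulls in H3K4me2. In H3K27me3 it read -0.41, -0.37 and 2.13 in the high-fertile and -0.47, 0.33 and 0.53 in the subfertile bulls, and again HF5 was highest. PSMB11, the catalytic subunit of the thymus proteasome, was covered by 2 probes. It read 0.08, 0.15 and 1.08 in the high-fertile and -0.41, -0.01 and 0.40 in the subfertile bulls in H3K4me2, with HF5 the highest bull. In H3K27me3 it read 0.15, -0.41 and -0.59 in the high-fertile and -0.49, 1.13 and -1.28 in the subfertile bulls, scattered on both sides of 0. The structural beta subunits PSMB3 and PSMB4, with 64 and 27 probes, ranged from -0.90 to 1.06 and from -1.76 to 1.83 in H3K4me2, HF3 being the highest bull for both.

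The PSMC genes encode the ring of ATPases that unfolds substrates, and PSMC6 was the one whose groups separated in H3K4me2. Its H3K4me2 values were 0.69, 0.79 and 0.46 in the high-fertile and -0.66, 0.21 and -0.49 in the subfertile bulls. The high-fertile bulls were all above 0 and all above the subfertile bulls, with means of 0.65 ± 0.17 and -0.32 ± 0.46 (SD, n = 3). The difference was 0.96 (SE 0.43, 95% confidence interval -0.02 to 1.94, unadjusted p = 0.0535), with an adjusted p of 1.00. In H3K27me3 the values were 1.18, -0.41 and -0.46 in the high-fertile and -1.02, -0.91 and -0.35 in the subfertile bulls, with overlap and a difference of 0.86. The sign of the H3K4me2 difference was shared by 10 of 10 probes, but the probes changed gradually along a stretch of overlapping bases. In the first of the 9 overlapping probes, H3K4me2 read 1.36, 2.52 and -0.80 in the high-fertile and -0.63, 0.35 and -1.91 in the subfertile bulls. In the ninth, starting at position 11266086, it read 0.30, 0.36 and 1.33 in the high-fertile and -0.70, 0.08 and 0.78 in the subfertile bulls, so that HF5 and SF5 went from below to above 0 and HF3 fell. With the 6 bulls' mean input as denominator the gene's H3K4me2 difference was 0.32, and its input signal was -0.24 in the high-fertile and 0.44 in the subfertile bulls. Within slide 4 it was 1.12. PSMC3 ran from -1.998 to 1.09 in H3K4me2 and from -1.94 to 0.21 in H3K27me3, with a mean H3K27me3 level of -0.86 ± 0.87 (SD, n = 6; unadjusted p = 0.0251). HF3 and SF1 were its lowest bulls in each mark, and the 2 marks moved together over the bulls (r = 0.91, n = 6, sharing each bull's input). PSMC1, PSMC4 and PSMC5 lay on both sides of 0 in each mark, and their fertility differences ran from -0.44 (PSMC1) to 0.55 (PSMC5) in H3K4me2.

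PSMC3IP, the recombination factor, separated the groups in H3K4me2 at lower values. It read -0.41, 0.03 and -0.08 in the high-fertile and -0.44, -0.89 and -0.65 in the subfertile bulls, and -0.10, 0.37 and -0.56 in the high-fertile and -0.34, -0.25 and 0.10 in the subfertile bulls in H3K27me3. The high-fertile bulls were all above the subfertile ones in H3K4me2, HF2 narrowly above SF1, and the difference was 0.51 (SE 0.41, 95% confidence interval -0.41 to 1.44, unadjusted p = 0.241). Of its 14 probes 7 were higher and 7 lower in the high-fertile bulls, from -1.001 to 2.47. The overlapping probes at chr26:32420055-32420130 gave 2.10 to 2.47, and no other probe was above 0.17. With the median over probes in place of the mean the gene's difference turned to -0.14. It was 0.18 against the mean input of the 6 bulls and 0.34 after within-array loess, and 0.37 within slide 4.

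Among the non-ATPase PSMD subunits, PSMD12, a part of the lid of the cap, separated the groups in H3K27me3. It read -0.16, 0.16 and 0.21 in the high-fertile and -0.58, -0.40 and -0.79 in the subfertile bulls, and -0.29, 0.69 and -0.11 in the high-fertile and -0.18, 0.23 and -0.47 in the subfertile bulls in H3K4me2. In H3K27me3 the high-fertile bulls were all above the subfertile ones, and the difference was 0.66 (SE 0.36, 95% confidence interval -0.16 to 1.48, unadjusted p = 0.101), with all 3 probes of one sign. It was 0.27 against the mean input of the 6 bulls, 0.42 after within-array loess, 0.38 with normexp background correction, 0.33 in the authors' deposited value table and 0.79 within slide 4. PSMD2, the scaffold of the base, had the largest high-fertile excess of the PSMD genes in H3K4me2, at 1.10, and 0.84 in H3K27me3, with overlap in both marks. PSMD5 and PSMD9, chaperones of cap assembly, ranged from -0.12 to 0.67 and from -0.37 to 1.07 in H3K4me2, and from -0.32 to 0.71 and from -0.27 to 0.91 in H3K27me3; HF5 was the highest PSMD9 bull in H3K4me2 and SF5 in H3K27me3. PSMD3, PSMD4 (a ubiquitin receptor) and PSMD13 overlapped between groups, with H3K27me3 differences of -0.64, -0.14 and -0.87.

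PSME2, a subunit of the interferon-inducible PA28 activator, varied from bull to bull in both marks. It read -0.06, 2.08 and -2.19 in the high-fertile and 0.27, 0.98 and -0.27 in the subfertile bulls in H3K4me2. H3K27me3 at PSME2 was -1.09, 0.82 and -1.70 in the high-fertile and 0.84, 0.26 and 0.08 in the subfertile bulls. HF3 was high and HF5 low in each mark, and the groups overlapped. The PSMG genes encode chaperones that assemble the alpha ring, and PSMG3 had the largest high-fertile excess of the 69 genes in H3K27me3. It read 0.35, 1.14 and 2.13 in the high-fertile and -0.22, -0.60 and -1.15 in the subfertile bulls in H3K27me3. Every high-fertile bull was above 0 and every subfertile bull below 0, with means of 1.20 ± 0.89 and -0.66 ± 0.47 (SD, n = 3). The difference was 1.86 (SE 0.53, 95% confidence interval 0.65 to 3.07, unadjusted p = 0.00741), place 42 of 6805 genes by p, and the adjusted p was 1.00. Its H3K4me2 values were 0.57, 0.88 and -0.88 in the high-fertile and 0.29, -0.22 and -1.95 in the subfertile bulls, where the groups overlapped. Of the 3 promoter probes, the middle one carried most of the H3K27me3 difference, at 3.93, beside 1.59 in the last and 0.07 in the outlying one. The middle probe read 0.61, 3.83 and 2.17 in the high-fertile and -0.18, -2.48 and -2.52 in the subfertile bulls. Without HF5 and SF5 the gene's difference was 1.15, and within slide 4 it was 2.35; the input signal was -1.31 in the high-fertile and -0.67 in the subfertile bulls, here lower where the ratio was higher. Of its 3 probes none was below background in ChIP in H3K27me3, and 1 was in input in HF3.

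PSMG1 and PSMG2, which act as a pair, read differently. PSMG1 read 0.10, 0.70 and 0.07 in the high-fertile and -0.59, 0.15 and 1.34 in the subfertile bulls in H3K4me2, and -0.33, 0.76 and 1.48 in the high-fertile and -0.35, -0.01 and 0.10 in the subfertile bulls in H3K27me3. HF5 led in H3K27me3 and SF5 in H3K4me2. PSMG2 read 0.58, 1.26 and -0.49 in the high-fertile and 0.75, 0.28 and 0.94 in the subfertile bulls in H3K4me2. H3K27me3 at PSMG2 was 0.91, 2.26 and -0.71 in the high-fertile and 0.98, 0.87 and -0.04 in the subfertile bulls. It was above 0 in 5 of 6 bulls in H3K4me2 and in 4 of 6 in H3K27me3, HF5 being below 0 in both, and its mean levels were 0.55 ± 0.61 (SD, n = 6; unadjusted p = 0.0698) and 0.71 ± 1.01 (SD, n = 6; unadjusted p = 0.0835). All 3 PSMG genes had a higher high-fertile mean in H3K27me3 (0.73, 0.22 and 1.86, beside 50.7% of all genes), and 1 of 3 in H3K4me2 (48.2% of all genes). The groups overlapped for PSMG1 and PSMG2. These counts carry no test, since the 3 genes share the same bulls and arrays.

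**Figure D2:**
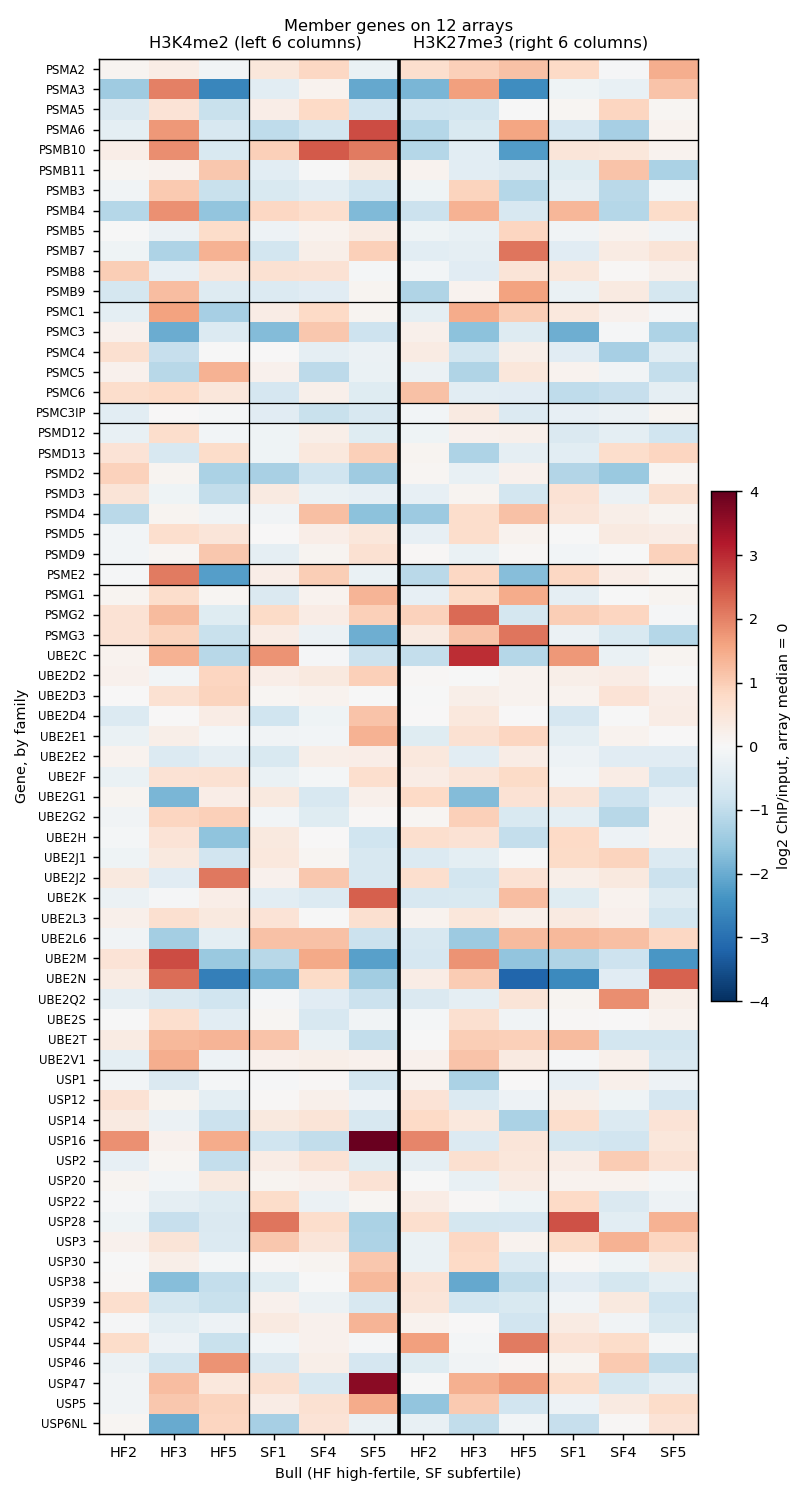
Log2 ChIP over input of 68 of the 69 genes (rows, by family) on the 12 arrays (columns, H3K4me2 left and H3K27me3 right, high-fertile bulls before subfertile ones); red is above and blue below the median probe of the array. Some genes have the same colour in both marks of a bull, as UBE2N in HF5 (-2.73 and -3.17) and USP28 in SF1 (2.14 and 2.53).

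Of the 22 UBE2 genes, 10 had a higher and 12 a lower high-fertile mean in H3K4me2 (48.2% of all genes were higher), and 13 and 9 in H3K27me3 (50.7%). None of the 22 separated the groups in either mark (6.58% of all genes did in H3K4me2 and 8.57% in H3K27me3). UBE2M and UBE2F, the E2 enzymes of the ubiquitin-like protein NEDD8, differed in spread. UBE2M was one of the widest of the 69 genes: its H3K4me2 values were 0.56, 2.61 and -1.49 in the high-fertile and -1.12, 1.53 and -2.16 in the subfertile bulls. H3K27me3 at UBE2M was -0.67, 1.79 and -1.59 in the high-fertile and -1.19, -0.84 and -2.34 in the subfertile bulls. HF3 was the highest and SF5 the lowest bull in each mark. Of the 22 UBE2M probes, 8 and 5 were below background in ChIP in SF5 (H3K4me2 and H3K27me3), and 9 and 6 in HF5. In SF4, 7 were below background in ChIP in H3K27me3. In HF3, 6 and 10 were below background in input, so the extremes of UBE2M rest partly on dim spots. UBE2F ranged only from -0.28 to 0.67 and from -0.77 to 0.76. UBE2N, which with UBE2V1 builds ubiquitin chains used in signalling, held the lowest value of the 69 genes. It read 0.32, 2.24 and -2.73 in the high-fertile and -1.85, 0.76 and -1.39 in the subfertile bulls in H3K4me2. H3K27me3 at UBE2N was 0.30, 1.01 and -3.17 in the high-fertile and -2.55, -0.47 and 2.35 in the subfertile bulls. HF5 and SF1 were low in both marks, and SF5 was low in H3K4me2 and high in H3K27me3. Of its 7 probes, 3 and 2 were below background in ChIP in HF5 (H3K4me2 and H3K27me3), 4 in SF5 in H3K4me2, and 2 and 5 in input in HF3. UBE2V1 ranged from -0.39 to 1.46 and from -0.64 to 1.14, with HF3 highest in each.

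UBE2C and UBE2S start and extend the chains that the anaphase-promoting complex places on cell-cycle proteins. UBE2C read 0.14, 1.40 and -1.11 in the high-fertile and 1.78, -0.05 and -0.84 in the subfertile bulls in H3K4me2. H3K27me3 at UBE2C was -0.95, 2.97 and -1.15 in the high-fertile and 1.72, -0.27 and 0.12 in the subfertile bulls. HF3 and SF1 were its high bulls in each mark. UBE2S read -0.03, 0.66 and -0.41 in the high-fertile and 0.09, -0.63 and -0.14 in the subfertile bulls in H3K4me2 and -0.09, 0.63 and -0.15 in the high-fertile and 0.04, 0.03 and 0.13 in the subfertile bulls in H3K27me3, with HF3 highest and no bull far from the array median. UBE2D2, UBE2D3 and UBE2D4 are broadly acting E2 enzymes that serve many ligases. UBE2D2 read 0.18, -0.11 and 0.86 in the high-fertile and 0.25, 0.39 and 0.96 in the subfertile bulls in H3K4me2 and 0.05, -0.0095 and 0.15 in the high-fertile and 0.22, 0.29 and -0.02 in the subfertile bulls in H3K27me3. UBE2D3 read 0.0014, 0.62 and 0.89 in the high-fertile and 0.08, 0.13 and -0.02 in the subfertile bulls in H3K4me2 and -0.0075, 0.23 and 0.15 in the high-fertile and 0.15, 0.54 and 0.26 in the subfertile bulls in H3K27me3. Their H3K27me3 values had the smallest spread over bulls of the 69 genes, with SDs of 0.13 and 0.18 beside a median of 0.68. UBE2D4 read -0.55, 0.01 and 0.29 in the high-fertile and -0.79, -0.16 and 1.13 in the subfertile bulls in H3K4me2 and 0.03, 0.43 and 0.03 in the high-fertile and -0.66, -0.02 and 0.29 in the subfertile bulls in H3K27me3, with SF5 highest and SF1 lowest in H3K4me2.

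UBE2J1, an enzyme of the endoplasmic reticulum needed for spermatid development in mice, was read by probes placed only to a window of sequence. Its values were -0.17, 0.39 and -0.76 in the high-fertile and 0.42, 0.08 and -0.65 in the subfertile bulls in H3K4me2 and -0.56, -0.40 and -0.0014 in the high-fertile and 0.76, 0.89 and -0.54 in the subfertile bulls in H3K27me3, where SF1 and SF4 were highest. Of the 2 UBE2J1 probes, 1 was below background in input on each array of HF3. UBE2K, which extends chains on other ubiquitin molecules, had 1 high bull per mark. It read -0.24, -0.04 and 0.26 in the high-fertile and -0.41, -0.56 and 2.38 in the subfertile bulls in H3K4me2 and -0.63, -0.61 and 1.22 in the high-fertile and -0.48, 0.14 and -0.50 in the subfertile bulls in H3K27me3, the high bulls being SF5 and HF5. UBE2Q2, read by 2 promoter probes, was the one gene of the 69 with a single sign in all 6 bulls in a mark. Its H3K4me2 values were -0.37, -0.57 and -0.80 in the high-fertile and -0.04, -0.46 and -0.85 in the subfertile bulls, all below 0 (1.57% of all genes were below 0 in all bulls), with a mean of -0.52 ± 0.30 (SD, n = 6; unadjusted p = 0.0394). In H3K27me3 it read -0.58, -0.37 and 0.50 in the high-fertile and 0.12, 1.87 and 0.24 in the subfertile bulls, on both sides of 0. The 2 probes did not read alike: the first gave -1.08, -2.40 and 0.05 in the high-fertile and 1.04, -0.43 and -0.05 in the subfertile bulls in H3K4me2. The second gave 0.33, 1.27 and -1.65 in the high-fertile and -1.13, -0.49 and -1.65 in the subfertile bulls. The mean level was -0.34 after within-array loess, -0.34 in the authors' deposited value table and -0.33 with a trend on probe GC content removed. UBE2L6, the E2 enzyme of the interferon-induced modifier ISG15, had differences of -1.11 and -1.38 with overlap, while UBE2L3, with the most probes, ranged only from -0.02 to 0.65 and from -0.72 to 0.46. UBE2T, the E2 enzyme of the Fanconi anaemia pathway, had a high-fertile excess in H3K4me2 with overlap, at 1.03.

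Of the 18 USP genes, 3 had a higher and 15 a lower high-fertile mean in H3K4me2 (48.2% of all genes were higher), and 5 and 13 in H3K27me3 (50.7%). These counts carry no test, since the genes share the same bulls and arrays, and the median differences were -0.17 and -0.17. USP42 was the one USP gene that separated the groups, in H3K4me2 (6.58% of all genes did). It read -0.05, -0.39 and -0.21 in the high-fertile and 0.35, 0.16 and 1.36 in the subfertile bulls. The high-fertile bulls were all below 0 and the subfertile ones all above, SF5 by the most, with means of -0.22 ± 0.17 and 0.62 ± 0.64 (SD, n = 3). The difference was -0.84 (SE 0.47, 95% confidence interval -1.90 to 0.22, unadjusted p = 0.106), and 3 of 31 probes had the opposite sign. Without SF5 it was -0.47, without HF5 and SF5 -0.48, and within slide 4 -0.56. In H3K27me3 USP42 read 0.14, 0.02 and -0.76 in the high-fertile and 0.33, -0.14 and -0.61 in the subfertile bulls, with a difference of -0.06. USP16, USP3, USP22 and USP44 take ubiquitin off nucleosomal histones. USP16 held the highest value of the 69 genes, in SF5: it read 1.82, 0.17 and 1.47 in the high-fertile and -0.81, -0.99 and 3.95 in the subfertile bulls in H3K4me2. H3K27me3 at USP16 was 1.94, -0.55 and 0.48 in the high-fertile and -0.70, -0.76 and 0.46 in the subfertile bulls. HF2 was high and SF1 and SF4 low in both marks, and the groups overlapped. USP44 read 0.72, -0.21 and -0.89 in the high-fertile and -0.12, 0.18 and -0.05 in the subfertile bulls in H3K4me2. In H3K27me3 it read 1.63, -0.07 and 2.08 in the high-fertile and 0.58, 0.73 and -0.07 in the subfertile bulls, with HF2 and HF5 highest, and its mean level was 0.81 ± 0.88 (SD, n = 6; unadjusted p = 0.0249). USP22 read -0.05, -0.37 and -0.51 in the high-fertile and 0.74, -0.23 and 0.08 in the subfertile bulls in H3K4me2 and 0.28, 0.06 and -0.17 in the high-fertile and 0.79, -0.58 and -0.19 in the subfertile bulls in H3K27me3, with SF1 highest in each. USP3 was above 0 in 5 of 6 bulls in H3K27me3, at -0.26, 0.84 and 0.15 in the high-fertile and 0.76, 1.39 and 0.85 in the subfertile bulls, with a mean of 0.62 ± 0.58 (SD, n = 6; unadjusted p = 0.019).

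USP14, a deubiquitinase that sits on the proteasome itself, read 0.37, -0.22 and -0.86 in the high-fertile and 0.38, 0.52 and -0.64 in the subfertile bulls in H3K4me2. In H3K27me3 it read 0.81, 0.41 and -1.28 in the high-fertile and 0.71, -0.55 and 0.55 in the subfertile bulls, with HF5 low in both marks. USP1, which acts in DNA repair, read -0.11, -0.58 and -0.08 in the high-fertile and -0.04, 0.03 and -0.73 in the subfertile bulls in H3K4me2 and 0.13, -1.28 and 0.02 in the high-fertile and -0.34, 0.22 and -0.21 in the subfertile bulls in H3K27me3, and HF3 was its lowest H3K27me3 bull. USP2, whose loss lowers male fertility in mice, read -0.31, 0.07 and -0.95 in the high-fertile and 0.31, 0.59 and -0.49 in the subfertile bulls in H3K4me2. Its H3K27me3 values were -0.36, 0.63 and 0.45 in the high-fertile and 0.28, 1.001 and 0.58 in the subfertile bulls, above 0 in 5 of 6 bulls, and the groups overlapped in both marks. USP5, which recycles free ubiquitin chains, read -0.14, 1.06 and 0.89 in the high-fertile and 0.29, 0.60 and 1.48 in the subfertile bulls in H3K4me2, above 0 in 5 of 6 bulls. Its H3K27me3 values were -1.57, 1.06 and -0.77 in the high-fertile and -0.22, 0.37 and 0.73 in the subfertile bulls, and its mean H3K4me2 level was 0.70 ± 0.58 (SD, n = 6; unadjusted p = 0.0263). USP28 and USP38 had the largest subfertile excess of the USP genes in H3K4me2, at -1.08 and -1.13, with overlap. USP47 in SF5 read 3.60 in H3K4me2 and -0.37 in H3K27me3. USP20 had the smallest SD over bulls of the 69 genes in H3K4me2, with values from -0.12 to 0.57.

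**Figure D3:**
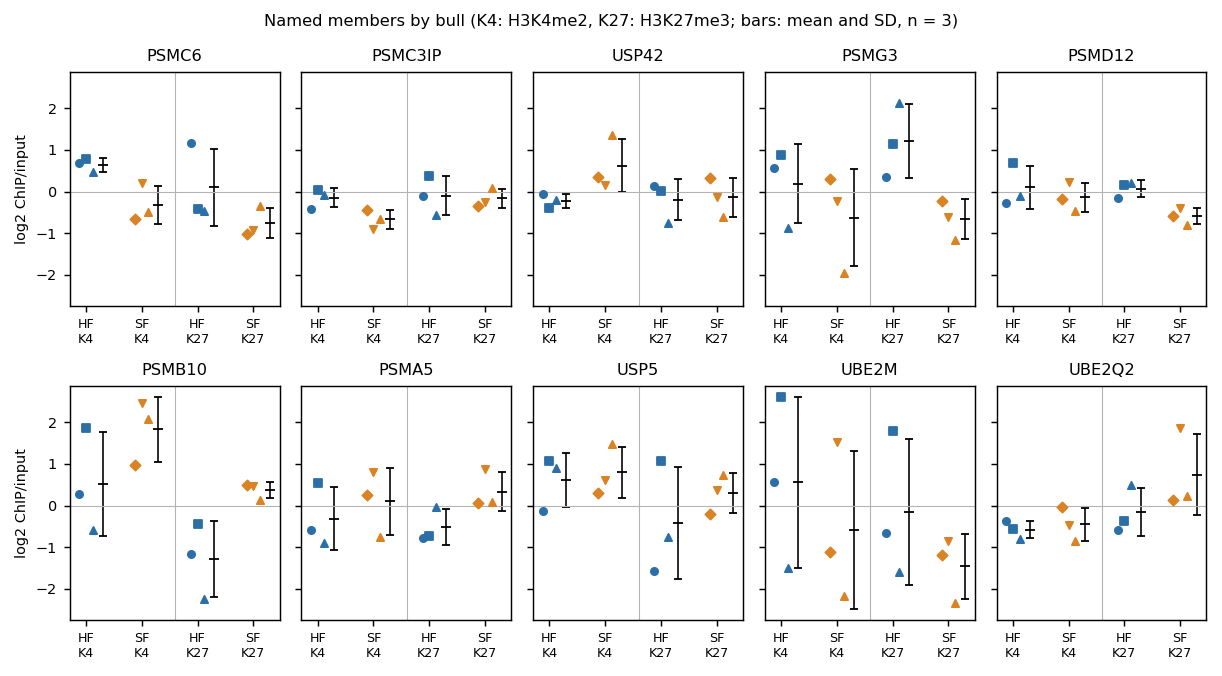
Log2 ChIP over input of 10 genes in each bull (circle HF2, square HF3, triangle up HF5, diamond SF1, triangle down SF4, triangle up SF5), by fertility group (blue HF, orange SF) and mark, with the mean and SD of 3 bulls in black. PSMG3 and PSMB10 lie on opposite sides of 0 in the 2 groups in H3K27me3, and PSMB10 is higher in H3K4me2 than in H3K27me3 in each bull.

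Measured against the median probe, no level of the 69 genes passed an adjusted p under 0.05 in either mark, as for all genes (0.0% in H3K4me2 and 0.0% in H3K27me3). The mean H3K4me2 level was above 0 for 35 of 69 genes (57.8% of all genes) and the mean H3K27me3 level for 39 (50.3%). An unadjusted p under 0.05 was reached in H3K4me2 by 3 genes, PSMB10, USP5 and UBE2Q2 (4.44% of all genes), and in H3K27me3 by 4, PSMA2, PSMC3, USP3 and USP44 (5.29%). The mean H3K4me2 level of PSMB10 was 1.18 ± 1.18 (SD, n = 6; unadjusted p = 0.00859). No gene of the 69 was above 0 in all 6 bulls in H3K4me2 (2.01% of all genes) or in H3K27me3 (1.63%), and none was below 0 in all bulls in H3K27me3 (1.88%). The number of the 69 genes further than 1 log2 unit from the median probe ran from 4 in HF2 to 23 in HF3 among the H3K4me2 arrays, which is 5.80% and 33.3% of them beside 5.2% and 25.0% of all genes on those arrays. On the H3K4me2 arrays of HF5 and SF5 the levels of the 69 genes followed probe GC content (r = 0.46 and 0.44 across genes, which share the array and its normalization and are no independent replicates), beside 0.34 in HF2 and -0.24 to 0.07 on the other 3.

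In the comparison of the marks, each value is relative to the median of its own array, so amounts of the 2 marks are not compared. PSMB10 had the smallest p of the 69 genes, with a higher value in H3K4me2 than in H3K27me3 in 6 of 6 bulls. The difference within a bull ran from 0.48 to 2.30 log2 units, and its mean was 1.63 (SE 0.46, 95% confidence interval 0.64 to 2.63, unadjusted p = 0.00368). By p it was place 1 of 6805 genes, and the adjusted p was 1.00. Both arrays of a bull come from the same animal, which the SE and interval just given do not take into account. With bull as a block, limma gave an SE of 0.26 and an unadjusted p of 0.000236, again place 1. The adjusted p was 0.934, so the difference did not pass over all genes. The stretch read is the CpG-rich one printed above, a single place of 66 bases that the array annotates as island and coding sequence. Of the 69 genes only USP5 and UBE2M were likewise higher in H3K4me2 in all 6 bulls (2.44% of all genes were), and no gene was lower in all 6 (1.1%). The UBE2M margin was narrow in HF5 (-1.49 in H3K4me2 and -1.59 in H3K27me3) and in SF1 (-1.12 and -1.19). For USP5 the difference was 0.76 (SE 0.44, 95% confidence interval -0.20 to 1.73, limma unadjusted p = 0.11). With bull as a block, limma gave an SE of 0.25 and an unadjusted p of 0.0157. All 8 probes shared the sign of the difference. For UBE2M the difference was 0.79 (SE 0.82, 95% confidence interval -0.99 to 2.58, limma unadjusted p = 0.351). With the block, limma gave an SE of 0.33 and an unadjusted p of 0.0447, and without SF4 the mean was 0.42. In SF4, 7 of the 22 UBE2M probes were below background in ChIP in H3K27me3. When overlapping probes were averaged first, so that each place counted once, the differences were 0.48 and 0.28. In the other direction, UBE2Q2 (-0.81, unadjusted p by limma = 0.0387, with the block 0.0348) and USP44 (-0.88, unadjusted p = 0.0481, with the block 0.0376) had the higher value in H3K27me3 in 5 of 6 bulls. An unadjusted p under 0.05 was thus reached by 3 of 69 genes (0.602% of all genes), and by 5 with bull as a block (3.82%). None passed an adjusted p under 0.05 (0.0% of all genes), and the median difference was 0.04 over the 69 genes beside 0.06 over all genes.

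How far the marks of a bull varied together over these genes differed between bulls. Across the 69 genes, H3K4me2 and H3K27me3 correlated in SF1 (r = 0.93), HF3 (0.77), HF2 (0.66), HF5 (0.45) and SF4 (0.31), and at r = 0.00596 in SF5. Between arrays of different bulls the median r was -0.02 over 60 pairs, from -0.41 to 0.42. SF4 and SF5 thus lay within the range of different bulls. Over all 6805 genes the values were 0.86 in SF1, 0.80 in HF3, 0.65 in HF2, 0.44 in HF5, 0.40 in SF4 and 0.25 in SF5. The 2 arrays of a bull share its input DNA, which enters both ratios, and a slide, and genes are no independent replicates, so these values describe the arrays only. With the mean input of the 6 bulls as denominator they were 0.61 in SF1, -0.03 in HF3, 0.36 in HF2, 0.25 in HF5, 0.12 in SF4 and -0.06 in SF5. Over the 6 bulls, the median r between marks was 0.53 for the 69 genes beside 0.61 for all genes. This r was above 0 for 58 of the 69 genes (84.1%, beside 88.6% of all genes), PSMA2 being lowest at -0.91 and UBE2T highest at 0.95.

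**Figure D4:**
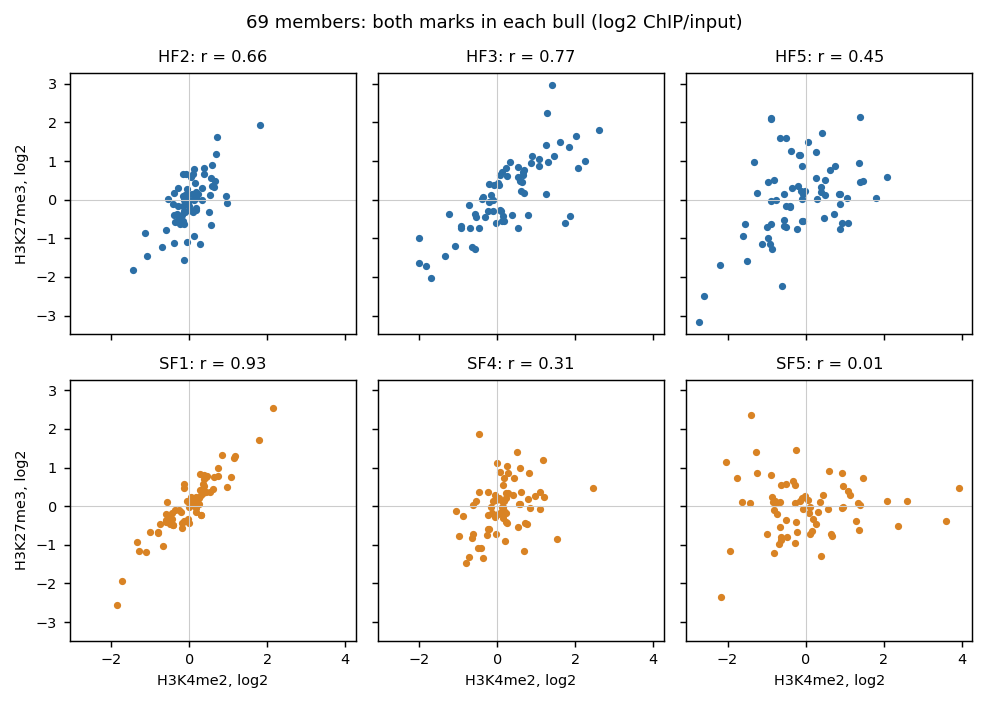
H3K27me3 against H3K4me2, both as log2 ChIP over input, for the 69 genes in each of the 6 bulls (blue high-fertile, orange subfertile), with Pearson's r across genes. The points lie along a diagonal in SF1 (0.93) and HF3 (0.77) and form a round cloud in SF5.

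In GC content and CG count, the probes of the 69 genes resembled those of the whole array, with a median GC content of 50% beside 51.7% and a median of 3 CG dinucleotides in both. The mix of probe classes differed, with 85.1% CpG island probes beside 90.6% of all probes, and the motif shares below were not adjusted for it. The motif TGACNNNGC, the core of the antioxidant response element bound by NFE2L1 and NFE2L2, transcription factors that raise proteasome genes, was found on either strand in 5.16% of their 1065 probes, from 12 genes, beside 2.21% of all 177440 probes of the array. The 12 genes were PSMA5, PSMA6, PSMB7, PSMD2, PSMD5, PSMG3, UBE2C, UBE2E1, UBE2G2, UBE2K, UBE2L3 and UBE2V1, and overlapping probes count the same match several times. CCGGAA, the ETS core, was in 2.16% of probes beside 2.87%, CCAAT, bound by NF-Y, in 11.2% beside 8.12%, and the motif of nuclear respiratory factor NRF1 in 0 beside 0.084%. A match only says that these letters lie in the probe.

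Other genes of the pathway, a list of 111 activating enzymes, modifiers, ligases and other deubiquitinases, had 60 genes on the array with enough probes. Of these, 33 had a higher and 27 a lower high-fertile mean in H3K4me2 (48.2% of all genes were higher), and 26 and 34 in H3K27me3 (50.7%). In either mark 0 of the 60 passed an adjusted p under 0.05. At an unadjusted p under 0.05, 1 of the 60 was higher in H3K4me2 (2.91% of all genes in either direction), and 2 were higher and 1 lower in H3K27me3 (4.07%), so that the counts were near the background. These 4 calls fell on ISG15 (a ubiquitin-like modifier), RNF2 (a Polycomb ligase), UFD1L (an adaptor of protein unfolding) and UFM1 (a ubiquitin-like modifier). The median difference of the 60 genes was 0.08 in H3K4me2 and -0.12 in H3K27me3, and H3K4me2 exceeded H3K27me3 for 36 of the 60 (59.8% of all genes), with 0 past an unadjusted p under 0.05.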

How the data were processed

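Sperm chromatin of 6 bulls was measured on 12 two-colour Agilent arrays, with ChIP DNA in Cy5 and input DNA in Cy3 on every array and no dye swap, after linker-mediated PCR, per the labels. The authors' Agilent Feature Extraction 10.7, per the submitters' processing notes (10.7.3.1 per the file headers), made the intensity values, subtracting background and normalizing dyes; the deposited files also hold a log10 ratio and flags of 0 and 1 for each spot. The authors' deposited value table is taken here as log2 ratios, and its method is not given in the sources used here. Against loess-normalized scanner ratios its columns reached correlations of 0.982 to 0.995, which show its direction but not its scale. PCR, the one dye orientation and cattle probes on buffalo DNA can each shift a ratio at a probe alike in all bulls.

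From the processed signals, log2 of Cy5 over Cy3 was centred on each array's median over 177372 of 177440 non-control probes (input above background on at least 6 arrays), outlier spots (13 to 546 per array) were set missing, and probes were averaged per gene where at least 2 were kept. Tests were two-sided moderated fits (lmFit, then eBayes, in limma 3.58.1 and R 4.3.3; p adjusted by Benjamini-Hochberg over 6805 genes, threshold 0.05), on the 6 arrays of a mark for fertility and levels and on all 12 arrays for the marks. The code was tested on simulated data. At the probe level, 0 of 175796 probes passed in either mark. Genes with values in every array were those of smallest p without overlap of the groups (up to 5 each way) or with one sign in all bulls (up to 8 each way), and a list of catalytic subunits, chaperones, E2 enzymes and proteases, PSMB6 and others not analysed here; PSMA2, PSMC3, USP3 and the other genes given by range were chosen after their values were seen. 1 gene of the 69 enters the counts and is not reported here by name. The genes and lists were chosen with earlier results of these data known. Each bull's 2 arrays pair by the bull the labels name as source of ChIP and input DNA; deviations from group means correlated at 0.32 to 0.75 within bulls (input 0.957 to 0.982). Promoter sequences were not used here, so motifs were searched in the probes. Precision is limited by 3 bulls a group.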

Additional observations from a re-analysis of the deposited data

How the results depend on the processing

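No gene of the 69, and none of all genes, passed an adjusted p under 0.05 by limma in the fertility comparisons, the difference between marks, the marks or the levels, under any alternative run: within-array loess, normexp, the authors' deposited value table, the median over probes, no filter on dim probes, CpG island probes only, a GC trend removed, the mean input of the 6 bulls, each bull left out, HF5 and SF5 left out, slide as a random block and bull as a replicate block on the 12-array comparisons, and, chosen after seeing the data, overlapping probes averaged first. At an unadjusted p under 0.05 the number of the 69 genes ran from 0 to 4 for fertility in H3K4me2, from 1 to 9 in H3K27me3, from 1 to 6 for the marks, and from 2 to 9 and 2 to 10 for the levels. The median H3K4me2 fertility difference was -0.136 to 0.0319 with each bull left out and 0.0375 without HF5 and SF5 together. The median in H3K27me3 was -0.0298 to 0.0984 with each bull left out and 0.0868 over the 56 genes with CpG island probes only. Bull as a replicate block left 0 genes past the adjusted threshold for the marks and for the difference between marks, and changed no call. PSMC3IP reversed in H3K4me2 with the median over probes, to -0.14; the cause was not tested. The other 184 comparisons of a named gene with an alternative kept its direction. No gene passed the adjusted threshold in any fit, so staying on one side of it adds nothing. Within slide 4, HF5 minus SF1, no test was run. Sizes did change: PSMA5 in H3K27me3 went from -0.85 to -0.09 within slide 4. PSMC6 in H3K4me2 went from 0.96 to 0.32 with the mean input of the 6 bulls. Slide as a block could not be fitted within a mark, where only 1 slide holds 2 arrays. Signal over background limits single values: 8 of the 828 gene values, of PSMA3, PSMA5, PSMD4, UBE2N and USP46, rest on arrays where 50% or more of the gene's probes were below background in ChIP. That count leaves out the input colour. In input the same share was reached by UBE2N in HF3 in H3K27me3 (5 of 7 probes). It was also reached, with 1 of 2 probes, by PSMA3 and UBE2J1 on both arrays of HF3. PSMD4 reached it with 1 of 2 probes on both arrays of HF5 and in HF3 in H3K27me3.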
